A study of Mus musculus with 16 samples.

Results

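The mRNAs of 10 mast cell cytokines and chemokines, Il4, Il13, Il6, Tnf, Ccl1, Ccl2, Ccl3, Ccl4, Csf2 and Lif, were followed in MC/9 cells and in the exosomes these cells release. MC/9 is an established mouse mast cell line, and exosomes are small membrane vesicles that carry RNA out of the cell. Every probe set whose only annotated gene symbol was one of the 10 names was taken, which gave 11 of the 45037 probe sets tested, 2 of them for Lif and 1 for each other gene, out of 18193 genes with such a probe set. RNA was measured on 16 Affymetrix arrays, 4 in each of 4 groups, and the replicates are separate cultures of the same line. Oxi exo are exosomes from cells exposed to 125 µM H2O2 for 24 h, and norm exo are exosomes from cells given vehicle. Oxi cell and norm cell are the MC/9 cells of those conditions. All cells grew in medium with Rat T-Stim, a rat-derived supplement, and exosomes were passed through a 0.22 µm filter and pelleted at 120000 g for 70 min. The sample descriptions name the cell arrays by the exosomes that the cells had received, whereas the study's methods treat them as the donor cells. The groups follow the titles and the condition label, which both accounts share. The values are MAS5.0 signals in arbitrary units, scaled on each array to a trimmed mean of 100, and the signals of different probe sets cannot be set against each other as transcript levels.

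Mast cells store histamine and proteases, and make cytokines and chemokines as new transcripts when IgE receptors, Kit or danger signals engage them. Transcription of these genes depends on NFAT, NF-kB, AP-1 and EGR factors, and their mRNAs carry AU-rich elements through which proteins such as tristetraprolin speed decay, so that their levels can move quickly. Il4 and Il13 drive allergic responses of B cells and epithelium, Il6 and Tnf are inflammatory cytokines, Csf2 and Lif support myeloid and other progenitors, Ccl2, Ccl3 and Ccl4 draw monocytes and lymphocytes, and Ccl1 is the ligand of Ccr8.

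The background of an array was set at the 95th percentile over 267 probe sets for smell, taste, hair, lens, milk, placental and gut defence genes, and a member was called above background in a group when it was so on all 4 arrays. It lay at 230.0 to 283 in oxi exo, 214 to 269 in norm exo, 12.5 to 15.5 in oxi cell and 13.9 to 18.1 in norm cell. Of all probe sets, 5.40% to 10.0% lay above it in oxi exo, 7.42% to 11.5% in norm exo, 47.0% to 49.5% in oxi cell and 46.5% to 49.7% in norm cell. The geometric mean of 9 spiked control probe sets was 17632 in oxi exo, 17737 in norm exo, 900.4 in oxi cell and 1092 in norm cell, a ratio of 0.825 of oxi cell to norm cell, with no overlap between the groups (p = 0.0286 in a two-sided exact permutation test, which cannot go lower with 4 arrays against 4, and 0.0508 adjusted over 16 comparisons of array measures). Of 11 mast cell markers measured, 10 were above background in oxi cell and 9 in norm cell. In oxi cell 1 of 11 T lymphocyte, 0 of 7 B lymphocyte, 4 of 13 macrophage and neutrophil and 1 of 9 fibroblast and endothelial markers were above it, and in norm cell 0, 0, 2 and 1. In exosomes 1 of the 11 mast cell markers was above background in oxi exo and 7 in norm exo.

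In the cells, 7 of the 10 genes were above background in both conditions, and 1 of them, Ccl2, changed. Ccl2, the main chemoattractant of monocytes, fell under oxidative stress by 0.52 on the log2 scale, a decrease of 30.5%. Il6, Ccl3, Ccl4, Ccl1, Il4 and Lif were above background on all 8 cell arrays and passed the test in neither direction. Tnf was above background on 4 oxi cell arrays and 3 norm cell arrays, and Il13 and Csf2 were above it in neither group. Of the 10 genes, 0 were called higher and 1 lower, where 4.31% of all probe sets were called higher and 5.51% lower in this comparison. The median log2 difference of all probe sets was -0.15, and the members' changes stand on that scale. Among the 18963 probe sets above background on all 8 cell arrays the median was -0.06, with 1884 called higher and 2316 lower. For the 7 genes above background this second set is the nearer scale.

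**Figure D1:**
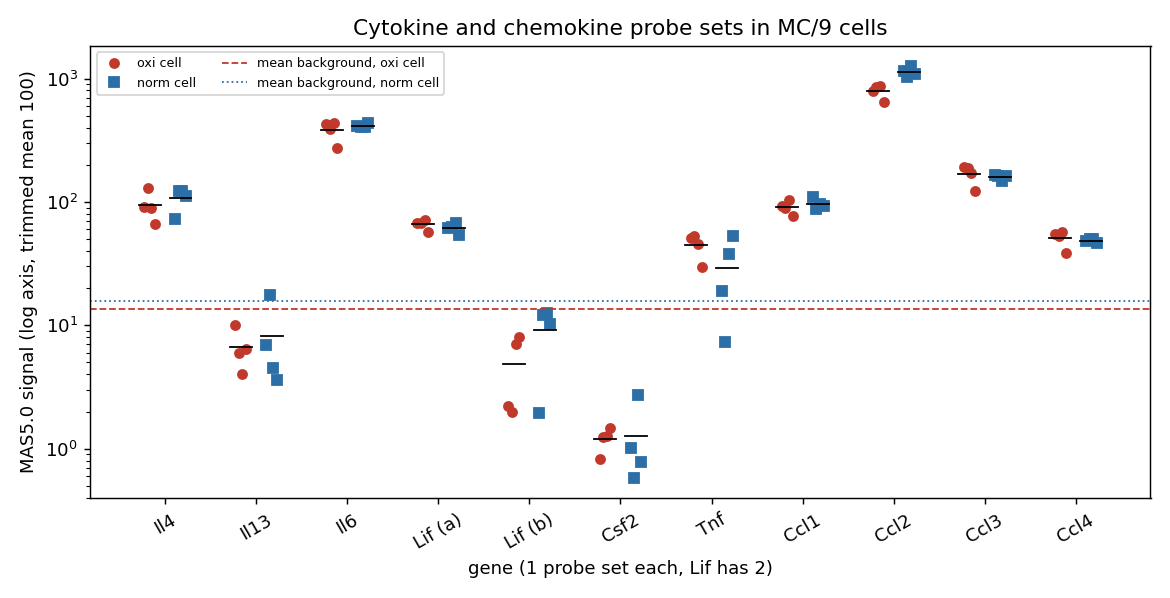
MAS5.0 signal (log axis) of each member probe set on the oxi cell arrays (red circles, left) and the norm cell arrays (blue squares, right), with short lines for the arithmetic means and broken lines for the mean background of each group. Ccl2 is the member whose groups do not overlap among those above background, and Il13, Csf2 and the second Lif probe set (b) lie under the lines on nearly all arrays.

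Ccl2 had signals of 793, 854, 864 and 641 in oxi cell, against 1160.4, 1023, 1252 and 1079 in norm cell. Each oxi cell array lay below each norm cell array, and each numbered pair went the same way. The mean was 788 ± 103 in oxi cell and 1128 ± 99.7 in norm cell (SD, n = 4 each), and limma gave a log2 difference of -0.52 with a standard error of 0.07 (95% interval -0.68 to -0.36, adjusted p = 0.00120). The methods' paired test, run on the linear signals, put Ccl2 under its threshold before Benjamini-Hochberg adjustment but not after it (adjusted p = 0.155, against limma's 0.00120). The size of the fall depended on the scaling: with the arrays scaled to the spiked controls it was -0.25 (adjusted p = 0.0321), and the median of all probe sets then stood at 0.13. In RNA of a whole culture, a change in every cell and a change in a share of the cells cannot be told apart.

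Il6, an acute phase and inflammatory cytokine, had signals of 429, 393, 434 and 271 in oxi cell, against 414, 402, 403 and 439 in norm cell. The oxi cell values of replicates 1 to 3 lie among or beside the norm cell values, and that of replicate 4 lies apart below them. The log2 difference was -0.14 with a standard error of 0.11 (95% interval -0.39 to 0.11, adjusted p = 0.519). Il4, the cytokine of the IgE class switch, had signals of 90.4, 129.6, 89.4 and 66.4 in oxi cell, against 73.0, 122, 122 and 111 in norm cell. The groups overlapped, with a log2 difference of -0.20 and a 95% interval of -0.54 to 0.14 (adjusted p = 0.509).

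Ccl3, a ligand of Ccr1, had signals of 193, 188, 172 and 122 in oxi cell, against 165, 162, 147 and 162 in norm cell. Ccl4, its close relative, had signals of 55.2, 53.1, 57.1 and 38.6 in oxi cell, against 48.1, 49.97, 50.4 and 46.2 in norm cell. For both chemokines, replicates 1 to 3 of oxi cell lay above every norm cell array and replicate 4 lay below every one. Over all 4 numbers the log2 difference was 0.07 for Ccl3 (95% interval -0.18 to 0.31) and 0.05 for Ccl4 (95% interval -0.27 to 0.37), with adjusted p of 0.801 and 0.887 in limma. Without replicate 4 in either group the difference of Ccl3 was 0.22 (adjusted p = 0.211) and that of Ccl4 was 0.16 (adjusted p = 0.651).

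Ccl1 had signals of 92.1, 89.5, 103.6 and 77.2 in oxi cell, against 110.1, 87.5, 96.6 and 92.1 in norm cell. Lif, a cytokine of the Il6 family, had signals of 67.0, 67.4, 71.4 and 57.2 in oxi cell, against 61.3, 62.5, 67.5 and 54.2 in norm cell on the brighter of its probe sets. Lif was higher in oxi cell in each of the 4 numbered pairs, by 0.08 to 0.13 on the log2 scale, but the groups overlapped and the difference did not pass (log2 0.10, 95% interval -0.16 to 0.36, adjusted p = 0.691). It was the only other member under the threshold of the methods' paired test before adjustment. The second Lif probe set was below background on all 16 arrays, and its log2 difference was -0.89 (95% interval -2.33 to 0.54). Ccl1 had a log2 difference of -0.09 (95% interval -0.33 to 0.14, adjusted p = 0.677).

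Tnf had signals of 50.7, 52.9, 45.7 and 29.7 in oxi cell, against 19.1, 7.31, 37.8 and 53.1 in norm cell. The norm cell arrays spread over a wider range than the oxi cell arrays and the highest value of all was a norm cell one. The log2 difference was 0.92 with a standard error of 0.45 (95% interval -0.05 to 1.90, adjusted p = 0.252), and 1.51 without replicate 4 (adjusted p = 0.0548) and 0.28 without replicate 2 (adjusted p = 0.745). Il13 had signals of 4.01 to 10.1 in oxi cell, against 3.62 to 17.6 in norm cell, where 1 array was above background. Csf2 had 0.826 to 1.46 in oxi cell, against 0.583 to 2.71 in norm cell, and no array of either group was above background.

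**Figure D2:**
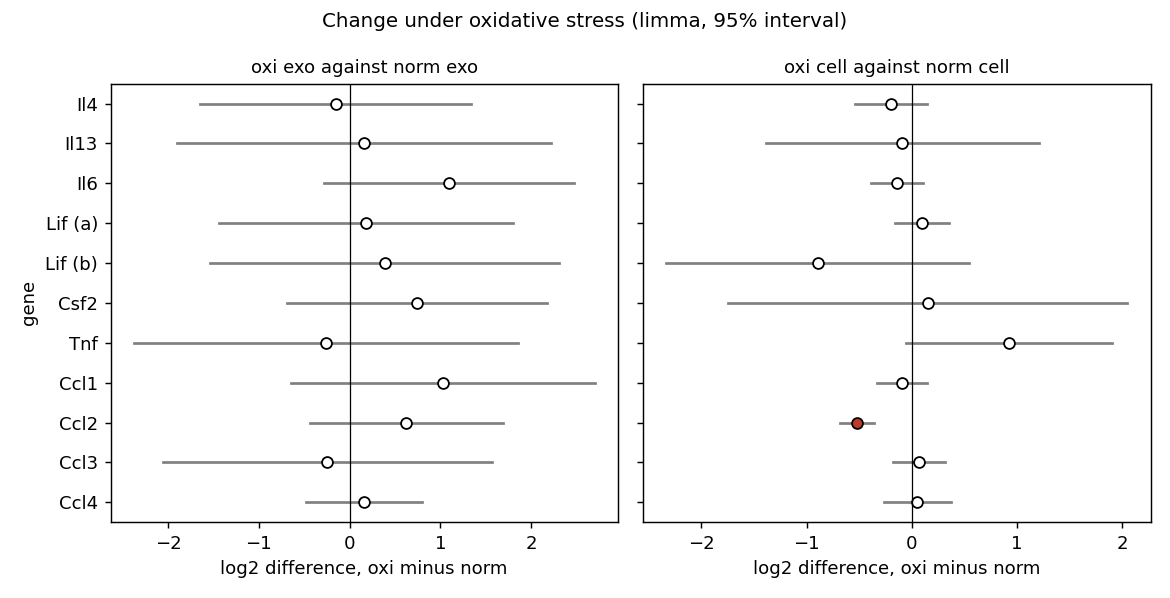
Log2 difference of oxi minus norm (points) with its 95% interval from limma (lines) for each member probe set, in exosomes on the left and in cells on the right, with called probe sets filled in red. Ccl2 in cells, at -0.52, is the filled point, and the intervals in exosomes are wider than those in cells for every probe set but that of Csf2.

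Replicate 4 of oxi cell gave the lowest value of its group for all 7 members that were above background on the 8 cell arrays. The median of their log2 differences from the other 3 oxi cell arrays was -0.52, against -0.01 for the 13158 probe sets above background whose mean level lay within the range of these members, of which 29.2% were lowest on that array. In the other 3 oxi cell arrays the members' median deviation was 0.04, 0.10 and 0.19. The lists most like the members shared the low values in part. Other cytokines above background on the 8 cell arrays were lowest on replicate 4 in 4 of 13 cases, with a median log2 difference of -0.07. Of these 13, 2 lay below the 5th percentile of all probe sets there, Csf1 and Osm, the latter at -1.54. Receptors of the members were lowest there in 4 of 6 cases (median -0.17, Ccr1 below the 5th percentile). Genes of cytokine processing and release were so in 10 of 18 cases (median -0.10, 0 below the 5th percentile). Other chemokines were lowest there in 0 of 5 cases, with differences of 0.02 to 0.42. Among 16401 probe sets above background with a single symbol, 0.555% lay further down on this array than Tnf, 0.976% further than Il6, 1.07% further than Il4, 1.24% further than Ccl3, 1.96% further than Ccl4, 4.50% further than Ccl2, 7.51% further than Ccl1 and 9.50% further than Lif. On this array 47.0% of probe sets were above background, against 48.3% to 49.5% on the other oxi cell arrays, the background itself was 15.5, against 12.5 to 13.3, and the Gapdh 3' to 5' signal ratio was 0.842, against 0.836 to 0.884. The part of these in the low values was not tested.

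**Figure D3:**
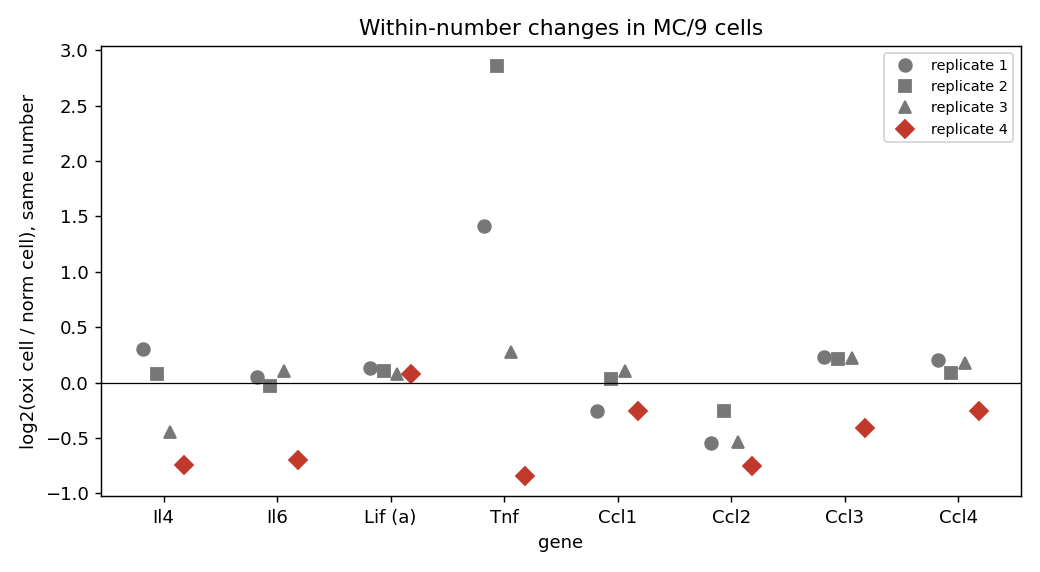
Log2 ratio of oxi cell to norm cell for arrays of the same replicate number, for the 8 members above background on all oxi cell arrays. Replicate 4 (red diamonds) is the lowest of the 4 for Il4, Il6, Tnf, Ccl2, Ccl3, Ccl4 and, by a small margin, Lif.

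Of 32 transcription and mRNA decay factors of cytokine genes above background on the 8 cell arrays, 13 were also lowest in their group on that array, with a median log2 difference from the other 3 oxi cell arrays of -0.08, and 7 (Egr1, Fos, Jun, Junb, Zfp36, Zfp36l1 and Zc3h12a) lay below the 5th percentile of all probe sets there. The 12 probe sets furthest below on it, picked by that value, stood for Egr1, Fos, Klf2, Rhob, Cd69, Ier2, Egr3, Puf60, Zfp36, Osm and, with 2 probe sets, H1f2. Egr1, an early response transcription factor, had signals of 5124, 5188, 4831 and 589.8 in oxi cell, against 3780.4, 5112, 3713 and 4778 in norm cell. Fos, a subunit of AP-1, had signals of 121, 114, 302 and 18.9 in oxi cell, against 93.0, 53.5, 43.8 and 29.1 in norm cell. Zfp36, which encodes tristetraprolin, had signals of 164, 164, 161 and 52.6 in oxi cell, against 156, 165, 106 and 105 in norm cell. Of 9 mast cell markers above background on the 8 cell arrays, 1 was lowest on that array, with a median difference of 0.05. That one was Gata2, with signals of 2813, 2868, 3239 and 2451 in oxi cell, against 3648, 3771, 3786 and 3557 in norm cell. Its difference from the other oxi cell arrays was -0.28, and 8.43% of probe sets lay further down on that array. Fcer1a, the alpha chain of the IgE receptor, had signals of 7817, 8895, 9604 and 9308 in oxi cell, against 10334, 10098, 11780.0 and 11458 in norm cell, and Ms4a2, its beta chain, differed on that array by -0.10 from the other oxi cell arrays.

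**Figure D4:**
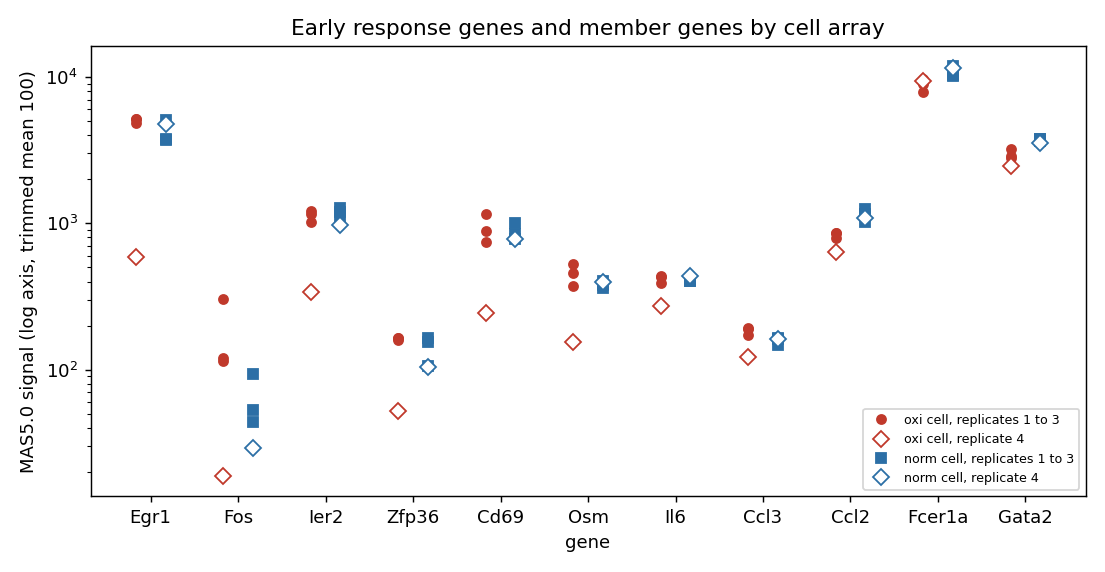
MAS5.0 signal (log axis) of early response genes, of the cytokine Osm, of Il6, Ccl3 and Ccl2, and of the mast cell genes Fcer1a and Gata2 on the cell arrays. Oxi cell stands left of norm cell and replicate 4 is drawn as an open diamond. In oxi cell the open diamond of Egr1 lies at 589.8, under the other 3 at 4831 to 5188, and those of Il6, Ccl3 and Ccl2 lie below their 3 filled circles.

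The bases upstream of the 4 members that lay furthest down on that array and have an entry in the RefSeq table are shown, with the motifs of factors known to act on cytokine genes. They are the 250 bases before the gene start in GRCm38.p6, 5′ to 3′ on the gene's strand, and capitals mark the letters of 4 motifs searched on both strands: GGAAAA, the core of NFAT sites; TGANTCA, the AP-1 element; TATAAA, the TATA box; and the NF-kB consensus.
Tnf (chr17:35202008-35202257, minus strand): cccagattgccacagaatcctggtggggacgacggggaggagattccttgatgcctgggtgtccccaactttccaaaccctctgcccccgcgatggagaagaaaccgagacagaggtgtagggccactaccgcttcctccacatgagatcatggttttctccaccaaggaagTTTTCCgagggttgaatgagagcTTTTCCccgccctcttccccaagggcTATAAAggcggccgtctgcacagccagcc
Il6 (chr5:30012864-30013113, plus strand): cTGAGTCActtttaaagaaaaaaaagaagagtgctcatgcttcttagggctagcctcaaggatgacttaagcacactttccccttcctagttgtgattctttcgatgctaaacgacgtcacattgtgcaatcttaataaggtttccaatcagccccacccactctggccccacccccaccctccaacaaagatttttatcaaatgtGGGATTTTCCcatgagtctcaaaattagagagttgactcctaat
Il4 (chr11:53618666-53618915, minus strand): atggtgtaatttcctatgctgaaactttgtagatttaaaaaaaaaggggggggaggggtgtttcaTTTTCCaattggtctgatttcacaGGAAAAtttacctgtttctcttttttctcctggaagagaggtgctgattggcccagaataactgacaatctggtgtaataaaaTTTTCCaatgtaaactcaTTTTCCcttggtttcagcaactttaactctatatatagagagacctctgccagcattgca
Ccl3 (chr11:83649379-83649628, minus strand): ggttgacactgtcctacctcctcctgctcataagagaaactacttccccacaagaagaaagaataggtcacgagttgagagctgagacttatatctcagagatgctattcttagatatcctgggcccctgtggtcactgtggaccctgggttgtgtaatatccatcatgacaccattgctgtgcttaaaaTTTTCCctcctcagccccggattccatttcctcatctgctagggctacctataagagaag
Of the 10 genes, 8 matched the table, Ccl2 and Ccl4 being named only. The NFAT core was found in 6 of those 8 windows, and in 20.4% of the 32851 windows of the same length before all genes. The NF-kB consensus was in 3 (Il6, Ccl1 and Lif), against 7.25% of all, the AP-1 element in 2 (Il6 and Lif), against 6.75%, and the TATA box in 2 (Il13 and Tnf), against 12.4%. In Il6 the NFAT letters lay inside the NF-kB match. These are matches of letters, not measured binding sites.

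In exosomes, the members did not rise above the noise of the arrays, with Ccl4 at its edge. Of the 10 genes, 9 were below background on all 8 exosome arrays. Ccl4 had signals of 291, 235, 305 and 211 in oxi exo, against 216, 223, 299 and 198 in norm exo. It was above background on 3 oxi exo arrays, at 1.02 to 1.13 times the background, and on 2 norm exo arrays, at 1.04 and 1.16 times. Ccl4 was higher in oxi exo in each of the 4 numbered pairs, but the groups overlapped and the log2 difference was 0.16 with a standard error of 0.30 (95% interval -0.48 to 0.80, adjusted p = 0.915).

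**Figure D5:**
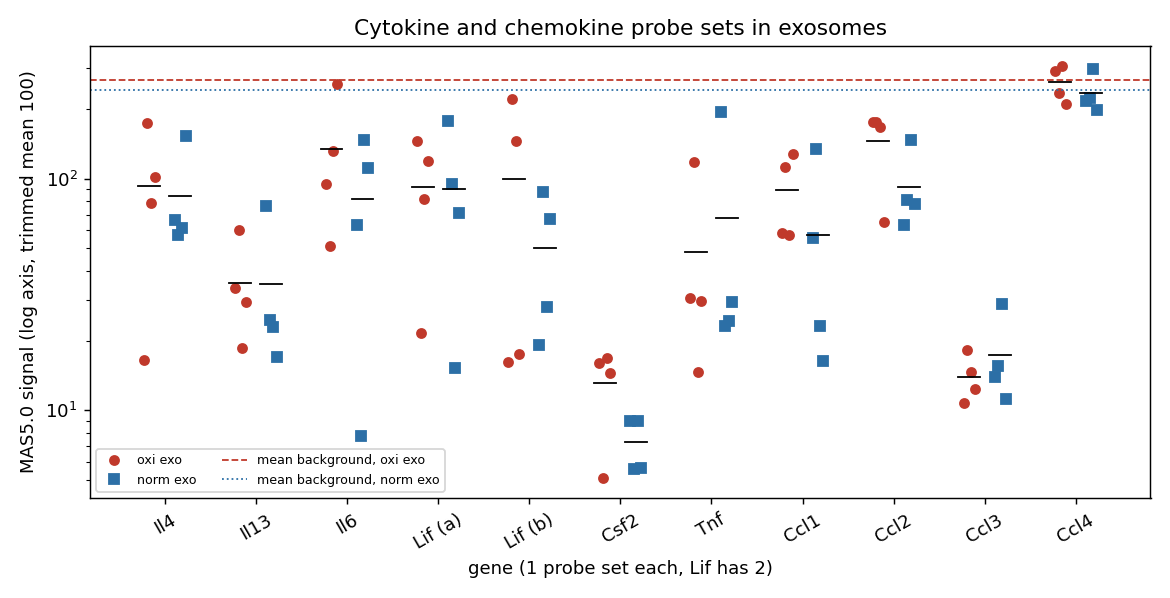
MAS5.0 signal (log axis) of each member probe set on the oxi exo arrays (red circles, left) and the norm exo arrays (blue squares, right), with short lines for the arithmetic means and broken lines for the mean background of each group. Ccl4 lies at the lines, and the other members lie below the line of their own group with wide spread.

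Between oxi exo and norm exo, 0 of the 10 genes were called in either direction, where 0.0311% of all probe sets were called higher and 1.7% lower. The methods' paired test also put 0 of them under its threshold before adjustment. Ccl2 had signals of 175, 177, 167 and 64.9 in oxi exo, against 63.4, 81.0, 148 and 78.0 in norm exo. Its difference was 0.62 on the log2 scale (95% interval -0.44 to 1.69, adjusted p = 0.746). Il6 had signals of 95.3, 51.1, 132 and 257 in oxi exo, against 62.8, 7.74, 147 and 111 in norm exo. Its difference was 1.10 on the log2 scale (95% interval -0.28 to 2.48, adjusted p = 0.628). In both genes the groups overlapped and all values were below background, so a difference of the size seen for Ccl2 in cells was not detectable here.

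The change under oxidative stress was then compared between exosomes and cells. For Ccl2 the change in exosomes minus that in cells was 1.15 on the log2 scale (standard error 0.40, 95% interval 0.28 to 2.02, adjusted p = 0.234), and for Il6 it was 1.24 (standard error 0.55, 95% interval 0.024 to 2.46, adjusted p = 0.368). Both intervals exclude 0, but limma called 0 of the 10 genes after adjustment, where 0.0933% of all probe sets were called higher in exosomes than in cells and 1.47% lower. Of the receptors, 3 of 16 were called lower in this comparison and 0 higher. The exosome values of Ccl2 and Il6, on which their differences rest, are all below background.

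Exosomes and cells differed in which members were seen. Ccl2 and Il6 were the members whose level in cells exceeded the exosome background. The signal of Ccl2 in cells was at least 2.95-fold above what the exosome arrays could show under oxidative stress and at least 4.69-fold in normal conditions. That of Il6 was at least 1.42-fold above it under oxidative stress and at least 1.73-fold in normal conditions. These bounds set the geometric mean of the 4 cell arrays against that of the exosome backgrounds. The cell levels of Ccl3, Il4, Ccl1, Lif, Tnf and Ccl4 were below the exosome background. On the scaled signals, whether exosomes held more or less of these mRNAs was therefore not detectable at this signal over background. Both the bounds and this limit depend on the scaling. The spiked controls were 19.6 times as high on oxi exo as on oxi cell arrays, and 16.2 times as high on norm exo as on norm cell arrays. Scaled to them, the exosome background would stand lower against the cell levels.

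The fitted differences on the scaled signals were as follows. In oxi exo against oxi cell, 3 members were called higher (Il13, Ccl4 and Csf2) and 3 lower (Ccl2, Il6 and Ccl3), where 60.8% of all probe sets were called higher and 19.4% lower. In norm exo against norm cell the counts were 3 and 3 with the same genes, where 57.7% were called higher and 19% lower. The 2 comparisons use different arrays, and the median log2 difference of all probe sets was 2.67 under oxidative stress and 2.23 in normal conditions, on arrays with the backgrounds given above. Ccl2 had log2 differences of -2.53 (standard error 0.28, adjusted p = 8.19e-05) between oxi exo and oxi cell and -3.68 (standard error 0.25, adjusted p = 4.81e-06) between norm exo and norm cell. Ccl3 had -3.60 (adjusted p = 0.000105) and -3.29 (adjusted p = 0.000177), with exosome signals of 10.7 to 18.1 in oxi exo and 11.2 to 28.7 in norm exo. Il6 had -1.73 (adjusted p = 0.00521) and -2.97 (adjusted p = 0.00128). Il6 did not pass the methods' paired test on log2 signals (adjusted p = 0.0882 under oxidative stress and 0.0795 in normal conditions), and was -1.32 and -2.05 without replicate 2 and -2.28 under oxidative stress without replicate 4.

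With the spiked controls the higher calls did not hold, and with quantile normalization that of Ccl4 alone did. Ccl4 had log2 differences of 2.35 between oxi exo and oxi cell and 2.25 between norm exo and norm cell, with quantile normalization 2.07 (adjusted p = 0.00234) and 1.83 (adjusted p = 0.00334), but with the arrays scaled to the spiked controls -1.93 and -1.77. Il13 (2.37 and 2.13) and Csf2 (3.34 and 2.75) were below background in exosomes and in nearly all cell arrays, and also turned negative under that scaling and under quantile normalization. With the spiked controls, 0 members were higher in either comparison, and 9 were lower between oxi exo and oxi cell and 8 between norm exo and norm cell. The lower calls of Ccl2, Il6 and Ccl3 kept their direction under both of these scalings. For Ccl3, unlike Ccl2 and Il6, the cell level on the scaled signals also lies below the exosome background.

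Related genes were counted by lists. Of all probe sets, 1941 (4.31%) were called higher and 2483 (5.51%) lower in oxi cell. These counts were 1871 and 1627 after quantile normalization, 6177 and 498 with the spiked controls, and 1130 and 1382 without replicate 4. In oxi exo, 14 were higher and 764 lower, with 72 and 358 after quantile normalization and 8 and 591 with the spiked controls. Of 47 other cytokines measured, 13 were above background in oxi cell and 13 in norm cell, and 0 were called higher and 2 lower between oxi cell and norm cell, with a median log2 difference of -0.19 beside -0.15 for all probe sets. Mif, macrophage migration inhibitory factor, averaged 4508 ± 556 in oxi cell and 5578 ± 233 in norm cell (SD, n = 4 each; log2 -0.31, adjusted p = 0.0106), and did not pass after quantile normalization (adjusted p = 0.163) or without replicate 4 (adjusted p = 0.0916). With the spiked controls its log2 difference in cells was -0.04 (adjusted p = 0.804). Vegfa, the main angiogenic growth factor, averaged 128 ± 23.3 in oxi cell and 224 ± 26.2 in norm cell (log2 -0.83, adjusted p = 0.00174). In exosomes, Mif was the other cytokine called, with means of 294 in oxi exo and 614 in norm exo (log2 -1.06, adjusted p = 0.0334), above background on 2 oxi exo arrays and all 4 norm exo arrays. There it did not pass after quantile normalization (adjusted p = 0.142) or with the spiked controls (adjusted p = 0.118). Of 30 other chemokines, 5 were above background in the cells and 0 were called in either direction in cells or in exosomes.

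Of 16 receptors of the members, 6 were above background in the cells, and 0 were called higher and 2 lower in oxi cell. Of all probe sets, 4.31% were called higher and 5.51% lower there. With the spiked controls 3 receptors were higher and 0 lower, where 6177 of all probe sets were higher and 498 lower. Ccr1, a receptor of Ccl3, averaged 82.3 ± 11.7 in oxi cell and 122 ± 5.10 in norm cell (log2 -0.58, adjusted p = 0.00545), and did not pass with the spiked controls (log2 -0.31, adjusted p = 0.113). Csf2ra, the alpha chain of the Csf2 receptor, averaged 2102 ± 130.2 in oxi cell and 2471 ± 167 in norm cell (log2 -0.23, adjusted p = 0.0366), and its difference was 0.04 with the spiked controls. In exosomes, 2 receptors were lower and 0 higher in oxi exo, where 1.7% of all probe sets were lower and 0.0311% higher. Csf2rb, the beta chain shared by the Csf2, Il3 and Il5 receptors, averaged 1555 ± 640.5 in oxi exo and 4366 ± 1173 in norm exo (log2 -1.54, adjusted p = 0.000911), and Csf2rb2, the mouse Il3-specific beta chain, averaged 224 ± 41.4 in oxi exo and 521 ± 162 in norm exo (log2 -1.18, adjusted p = 0.0345). Their sequences are near copies, so their probe sets may share signal. Neither passed after quantile normalization (adjusted p = 0.435 and 0.0729).

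Of 36 transcription and mRNA decay factors of cytokine genes, 2 were higher and 4 lower in oxi cell. Of all probe sets, 4.31% were higher and 5.51% lower. The 36 had a median log2 difference of -0.04. After quantile normalization 4 were higher and 7 lower. With the spiked controls 11 were higher and 0 lower, where 6177 of all probe sets were higher and 498 lower, with a median of 0.13. Gata2, a factor of mast cell identity, averaged 2842 ± 322 in oxi cell and 3691 ± 108 in norm cell (log2 -0.38, adjusted p = 0.00185). Stat3, which carries Il6 and Lif signals, averaged 705 ± 44.3 in oxi cell and 929 ± 65.4 in norm cell (log2 -0.40, adjusted p = 0.00268). Stat6, which carries Il4 and Il13 signals, averaged 417 ± 31.3 in oxi cell and 498 ± 1.87 in norm cell (log2 -0.26, adjusted p = 0.0244), and Nfatc1 was the remaining lower gene. With the spiked controls Gata2 (adjusted p = 0.358), Stat3 (adjusted p = 0.363) and Stat6 (adjusted p = 0.941) did not pass. Elavl1, which binds and stabilises AU-rich mRNAs, averaged 479 ± 18.9 in oxi cell and 408 ± 19.0 in norm cell (log2 0.23, adjusted p = 0.0285). The higher genes were Elavl1 and Stat5a over all 4 numbers. Without replicate 4 the higher genes were Jun (log2 0.63) and Fos (log2 1.42), and the lower genes were 2, Gata2 and Stat3. Jun and Fos are named with their values seen. Both were among the genes far down on the oxi cell array left out, so leaving it out raises their differences by construction. Over all 4 numbers neither passed in limma (adjusted p = 0.164 for Jun and 0.191 for Fos). In exosomes 0 of the 36 were called.

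Of 20 genes of cytokine processing and release, 2 were higher and 2 lower in oxi cell, and 0 were higher and 3 lower in oxi exo. With the spiked controls the counts were 7 and 0 in oxi cell and 0 and 1 in oxi exo, and after quantile normalization 2 and 1 in oxi cell and 0 and 0 in oxi exo. Over all probe sets the counts with the spiked controls were 6177 and 498 in oxi cell and 8 and 591 in oxi exo. Srgn, the granule proteoglycan serglycin, averaged 6375 ± 485 in oxi cell and 7659 ± 409 in norm cell (log2 -0.27, adjusted p = 0.00564), and 274 ± 91.5 in oxi exo and 641 ± 165 in norm exo (log2 -1.25, adjusted p = 0.0149). The other gene lower in oxi cell was Stx4a, a syntaxin of exocytosis, and the other higher was Rhbdf2, which carries the Tnf-releasing protease to the surface. Vamp8, a vesicle membrane protein of granule release, averaged 638 ± 4.78 in oxi cell and 534 ± 14.3 in norm cell (log2 0.26, adjusted p = 0.0131). Vti1b, a vesicle fusion protein, averaged 530 ± 123 in oxi exo and 1302 ± 157 in norm exo (log2 -1.32, adjusted p = 0.00245), and Unc13d, which primes secretory granules, averaged 248 ± 87.5 in oxi exo and 581 ± 164 in norm exo (log2 -1.26, adjusted p = 0.0279). After quantile normalization Srgn in cells (adjusted p = 0.699) and Srgn, Vti1b and Unc13d in exosomes (adjusted p = 0.0903, 0.255 and 0.0759) did not pass. With the spiked controls the log2 difference of Srgn in cells was 0.012 (adjusted p = 0.948). Under that scaling Srgn and Unc13d in exosomes did not pass (adjusted p = 0.0515 and 0.0896), and Vti1b did (adjusted p = 0.0161). Without replicate 4 the counts for this list in cells were 0 higher and 1 lower, where 1130 of all probe sets were higher and 1382 lower. Of the 11 mast cell markers, 2 were higher and 7 lower in oxi cell, with a summed signal of 34052 to 40905 in oxi cell and 45737 to 49951 in norm cell, and 0 were higher and 5 lower in oxi exo. The shares of all probe sets are those given above for the release genes. In oxi cell the marker counts were 2 and 3 after quantile normalization and 3 and 2 with the spiked controls. The markers moved apart, with log2 differences of -1.11 for Tpsb2 and -0.69 for Cma1, both proteases, 0.58 for Hdc, which makes histamine, and 1.17 for the protease Tpsab1. The part of these markers in the other lists' counts was not tested.

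Over the 8 cell arrays, the probe sets whose log2 signals followed Ccl2 most closely among 16400 compared were those of Mideas (Pearson r = 0.990), Ifi47 (0.987), Gga2 (0.986), Fam110c (0.986) and Slc2a3 (0.985). These 5 are given as a description, since the arrays share their 2 conditions and the search ran over all of them. Fam110c averaged 368 in oxi cell and 516 in norm cell (log2 -0.49, adjusted p = 0.00141), and Slc2a3, a glucose transporter, averaged 2439 in oxi cell and 3199 in norm cell (log2 -0.40, adjusted p = 0.00331). Mideas, Ifi47 and Gga2 did not pass the test (log2 -0.14 to -0.19).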

How the data were processed

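RNA of 16 samples was hybridised to Affymetrix mouse arrays; the table holds 45101 probe sets. The deposited values are signal intensities that the authors made with MAS5.0, in GCOS 1.2 per the submitters' processing notes, and scaled on each array to a mean of 100 with 2% trimmed at each end; detection calls were not used here, and arrays have no count depth, so that the number of arrays and the signal over background limit the precision. After leaving out 64 controls, log2 signals were fitted with limma 3.58.1 (lmFit, eBayes with a trend over mean log2 signal; R 4.3.3) on the 8 arrays of each comparison, and the replicate number was a blocking factor, following the paired test of the methods. P was adjusted by Benjamini-Hochberg over 45037 probe sets at a threshold of 0.05. In cells the number did not otherwise tie the arrays together, as deviations of arrays with the same number correlated at -0.05 to 0.09. In exosomes these correlations were uneven, at -0.03 to 0.47, with 0.47 for number 2 and 0.23 for number 4. Scaled signals show shares of an array's total, so that a high background or a shift of most probe sets moves every member. Of the probe sets, 34945 carried 1 symbol, 932 several and 9160 none. Where a gene had more than 1 probe set, that of highest mean log2 signal in cells stood for it. All members were reported, and from each list the genes called in cells or exosomes and above background in a group, at most 4 of highest mean signal. The members and the lists were chosen with earlier results of these data known. Upstream sequences are from RefSeq, GRCm38.p6. Fits were tested on simulated data. Alternatives were the fit without the block, quantile normalization, scaling to 9 spiked controls, a filter on dim probe sets, a pseudocount of 100, a floor at background (fitted without the trend, as tied values break it), the methods' paired t-test on linear and log2 signals, another choice of probe set and leaving out each replicate number. Figures were drawn with Python 3.11.15 and matplotlib 3.10.9.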

Additional observations from a re-analysis of the deposited data

Results flagged for a closer look

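Over 44 sets of 4 arrays (11 probe sets in 4 groups), 6 held an array far from the other 3 by Dixon's test, a test that by chance marks about 1 set in 20. In oxi exo these were the highest value of Tnf, 118 in replicate 2, and the lowest of Ccl2, 64.9 in replicate 4. In norm exo they were the highest values of Il4, 153 in replicate 4, of Il13, 76.3 in replicate 1, and of Tnf, 194 in replicate 1. All 5 of these exosome values are below background. In norm cell it was the lowest value of Ccl3, 147 in replicate 3.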

How the results depend on the processing

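Ccl2 kept its fall in cells under every alternative, and its call under all but the methods' t-test, where it was -341 in signal units (adjusted p = 0.155) and -0.52 on the log2 scale (adjusted p = 0.176), leaving 0 members lower on either scale, with 5 and 0 probe sets called in all. Without the replicate block its adjusted p was 0.00162, and the count was 1 lower, as with it. Leaving out each number in turn gave -0.61 to -0.45 for Ccl2, -0.23 to 0.042 for Il6 (positive without replicate 4), 0.28 to 1.51 for Tnf, and 1 member lower each time. With the spiked controls Il6 was 0.14, Il4 0.078 and Ccl1 0.18 in cells, and Ccl1 was 0.0053 after quantile normalization. Between oxi cell and norm cell, 1941 probe sets were higher and 2483 lower, 1871 and 1627 after quantile normalization, and 6177 and 498 with the spiked controls. A floor at background gave 3 members lower in cells, where 27618 of all probe sets were lower, since the floor itself differed between the groups.

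Exosomes against cells depended on the scaling. For oxi exo against oxi cell the members higher were 1 by quantile normalization, 0 with the spiked controls, 1 with the filter on dim probe sets, 8 with the floor and 1 by the methods' t-test on linear signals, and 9 were lower with the spiked controls. For norm exo against norm cell they were 1, 0, 1 and 8 higher under the first 4 of these settings and 1 with the pseudocount of 100, and 8 lower with the spiked controls. Il13 was -0.71 and -0.54 by quantile normalization and -1.91 and -1.89 with the spiked controls, Csf2 -0.38 and -0.61, then -0.94 and -1.27, and Ccl4 -1.93 and -1.77 with the spiked controls, each for oxi and then norm. The floor turned Ccl3 to 0.67 and 0.59, by its construction, since the exosome floor exceeds the cell signal. It also gave 3 members, Ccl2 among them (0.67, adjusted p = 0.00309), a higher change in exosomes than in cells. Leaving out a number gave 3 higher and 3 lower for oxi, and 2 to 3 higher and 3 to 4 lower for norm, where Il13 lost its call without replicate 1, 3 or 4. Across all probe sets, 27373 were higher and 8740 lower between oxi exo and oxi cell (1988 and 22131 with the spiked controls) and 25977 and 8538 between norm exo and norm cell (1363 and 22723). Without replicate 4, a setting chosen after the data were seen, the other cytokines had 1 lower in cells and the receptors 1. Fewer arrays cut the calls over all probe sets as well. In cells they were 1130 higher and 1382 lower without replicate 4, and 1183 and 1363 without replicate 2, against 1941 and 2483 with every array. Signal over background is what limits the exosome values.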
